A study of Homo sapiens with 3 samples.

Results

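The 6 genes described here are the neuregulin ligands NRG1 and NRG2 and the receptors EGFR, ERBB2, ERBB3 and ERBB4, out of 36601 genes counted. They were taken by symbol. The choice used the rise of NRG2 at day 3 and the receptor levels across marker-defined cells, so the values of those kinds below are a description and support nothing further. The cells are UCLA1, an established line of human embryonic stem cells, sampled at day 1, day 2 and day 3 of a culture that the labels name GiMO, grown under a Geltrex overlay, an extract of basement membrane. The series title concerns a response to BMP4. When or whether BMP4 was given is not stated in the labels used here, and no genotype, sort or other treatment is given that sets the groups apart. There was 1 library per day, so differences between days have no replicate check, and day cannot be told apart from library or batch. Filtering kept 3533, 7224 and 6804 cells at days 1, 2 and 3, with 165813128, 119744389 and 137684818 unique molecular identifiers (UMIs, each standing for 1 captured RNA molecule). Median depth was 41595, 15642 and 19227 UMIs per cell. At most 10 cell barcodes were shared between any pair of libraries after filtering.

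Neuregulins are ligands with an EGF-like domain that is usually released from a membrane-bound precursor by proteases. They bind ERBB3 and ERBB4. ERBB2 has no known ligand and serves as the preferred partner of the other receptors, ERBB3 has an impaired kinase and signals through its partner, and EGFR binds EGF, TGFA and related ligands. In the mouse embryo NRG1 from the endocardium acts on ERBB2 and ERBB4 of the heart muscle, and neuregulin is an ingredient of some defined media for human pluripotent stem cells.

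Windows of 250 bases before annotated starts are shown for NRG2 and ERBB4, the ligand and the receptor whose levels were higher at each later day by both scalings used below. Sequences are from RefSeq, GRCh38.p14, 5′ to 3′ in the direction of transcription, with capitals marking the searched motifs that were found. NRG2 has a pair of annotated starts: the outer at the gene's 5′ end, the inner 138.828 kb inside the gene. The windows are chr5:140043300-140043549 for the outer NRG2 start, chr5:139904472-139904721 for the inner NRG2 start and chr2:212538803-212539052 for ERBB4, all on the minus strand.
NRG2 outer start: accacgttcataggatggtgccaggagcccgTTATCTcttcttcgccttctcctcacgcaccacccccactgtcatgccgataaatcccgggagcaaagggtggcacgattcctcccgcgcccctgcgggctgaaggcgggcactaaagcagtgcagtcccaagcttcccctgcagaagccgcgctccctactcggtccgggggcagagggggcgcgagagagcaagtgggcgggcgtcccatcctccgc
NRG2 inner start: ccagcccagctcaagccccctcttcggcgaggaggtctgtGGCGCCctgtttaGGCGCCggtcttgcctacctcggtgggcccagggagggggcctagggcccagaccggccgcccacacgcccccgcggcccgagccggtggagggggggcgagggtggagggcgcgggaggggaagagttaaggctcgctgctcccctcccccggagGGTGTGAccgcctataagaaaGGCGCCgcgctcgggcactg
ERBB4 start: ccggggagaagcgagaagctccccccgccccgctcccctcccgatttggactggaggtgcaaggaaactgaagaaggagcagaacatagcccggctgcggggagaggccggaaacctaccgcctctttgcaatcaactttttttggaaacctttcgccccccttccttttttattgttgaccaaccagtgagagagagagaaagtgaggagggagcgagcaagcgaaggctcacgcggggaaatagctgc
On both strands the letters searched were, for T-box factors such as TBXT, GGTGTGA. For factors of the family of GATA3 they were AGATAA, for LIM homeodomain factors such as LHX1 TAATTA, for the WNT effectors LEF and TCF CTTTGAT, and for a GC-rich element of SMAD1 and SMAD5 GGCGCC. The matches found did not overlap. The inner NRG2 window held GGTGTGA 41 bases before the start and GGCGCC at 210, 197 and 20 bases before it. The outer window held AGATAA on the reverse strand, 219 bases before the start. None of the 5 motifs was found in the ERBB4 window. Over 35116 windows of the same length, 2.76% held GGTGTGA, 9.17% AGATAA, 4.35% TAATTA, 2.26% CTTTGAT and 16.4% GGCGCC. A match describes these letters only, and the counts used here do not tell which NRG2 start was used. No window was available for ERBB3.

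NRG2 (ENSG00000158458, hg38 chromosome 5, 139846779 to 140043299, minus strand) stayed under 2 CPM (UMIs of a gene per 1000000 UMIs) at days 1 and 2 and was far higher at day 3. Its level was 0.911, 1.85 and 98.3 CPM at days 1, 2 and 3. Day 3 was 53.3 times day 2, with a 95% interval of 46.6 to 61.1, and 108 times day 1 (92.0 to 128). These intervals come from counting error only, and UMIs of 1 cell are not independent, so the spread between cultures may be wider. After each cell was thinned to 5000 UMIs, 0.486%, 0.920% and 27.3% of cells held an NRG2 UMI, against 2.58%, 2.30% and 47.0% at full depth. The day 3 signal was spread over many cells: the 1% of cells with the most NRG2 UMIs held 10.5% of them.

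NRG1 (ENSG00000157168, chromosome 8) was present at every day and higher at day 3. Its level was 11.0, 13.7 and 30.0 CPM at days 1, 2 and 3. Day 3 was 2.18 times day 2 (2.06 to 2.31). Day 2 was 1.24 times day 1 by total UMIs and 0.993 times by TMM scaling, so its direction over the first interval depends on the scaling. Thinned cells with an NRG1 UMI made up 4.83%, 5.31% and 10.2% of the 3 libraries, and 30.9%, 13.6% and 26.3% at full depth. At day 3 the top 1% of cells held 24.8% of NRG1 UMIs, and 1 cell held 78 of them.

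EGFR (ENSG00000146648, chromosome 7, 55019017 to 55211628, plus strand) was lower at each later day. Its level was 9.98, 7.10 and 2.93 CPM at days 1, 2 and 3. Day 3 was 2.43-fold lower than day 2 (2.15 to 2.74) and 3.41-fold lower than day 1 (3.05 to 3.81). The ratio of day 2 to day 1 was 0.712 by total UMIs and 0.568 by TMM.

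ERBB2 (ENSG00000141736, chromosome 17, 39687914 to 39730426, plus strand) held its level over the first 2 days and was lower at day 3, at 39.4, 42.1 and 16.9 CPM. Day 3 was 2.48-fold lower than day 2 (2.36 to 2.61). Thinned cells with an ERBB2 UMI made up 16.5%, 18.5% and 7.54% of the libraries. The ratio of day 2 to day 1 was 1.07 by total UMIs and 0.851 by TMM, a change of direction.

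ERBB3 (ENSG00000065361, chromosome 12, 56076799 to 56103505, plus strand) fell the most of the 4 receptors between days 2 and 3. Its level was 23.2, 28.1 and 7.34 CPM at days 1, 2 and 3. Day 3 was 3.84-fold lower than day 2 (3.57 to 4.12). The share of thinned cells with a UMI was 11.2%, 12.2% and 3.22%. For ERBB3, too, the direction between days 1 and 2 depends on the scaling, with a ratio of 1.21 by total UMIs and 0.968 by TMM.

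ERBB4 (ENSG00000178568, chromosome 2, 211375717 to 212538841, minus strand) was the receptor that ran the other way. Its level was 4.29, 8.41 and 23.7 CPM at days 1, 2 and 3. Day 2 was 1.96 times day 1 (1.78 to 2.16; 1.56 by TMM) and day 3 was 2.82 times day 2 (2.62 to 3.03). The share of thinned cells with a UMI was 1.83%, 3.92% and 7.75%. At day 3 the top 1% of cells held 33.5% of ERBB4 UMIs. Such a share also depends on a gene's number of UMIs, being 32.5% for EGFR with 403 UMIs. The highest ERBB4 cell held 54 of 3262 UMIs, against 39 of 13539 for NRG2.

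**Figure D1:**
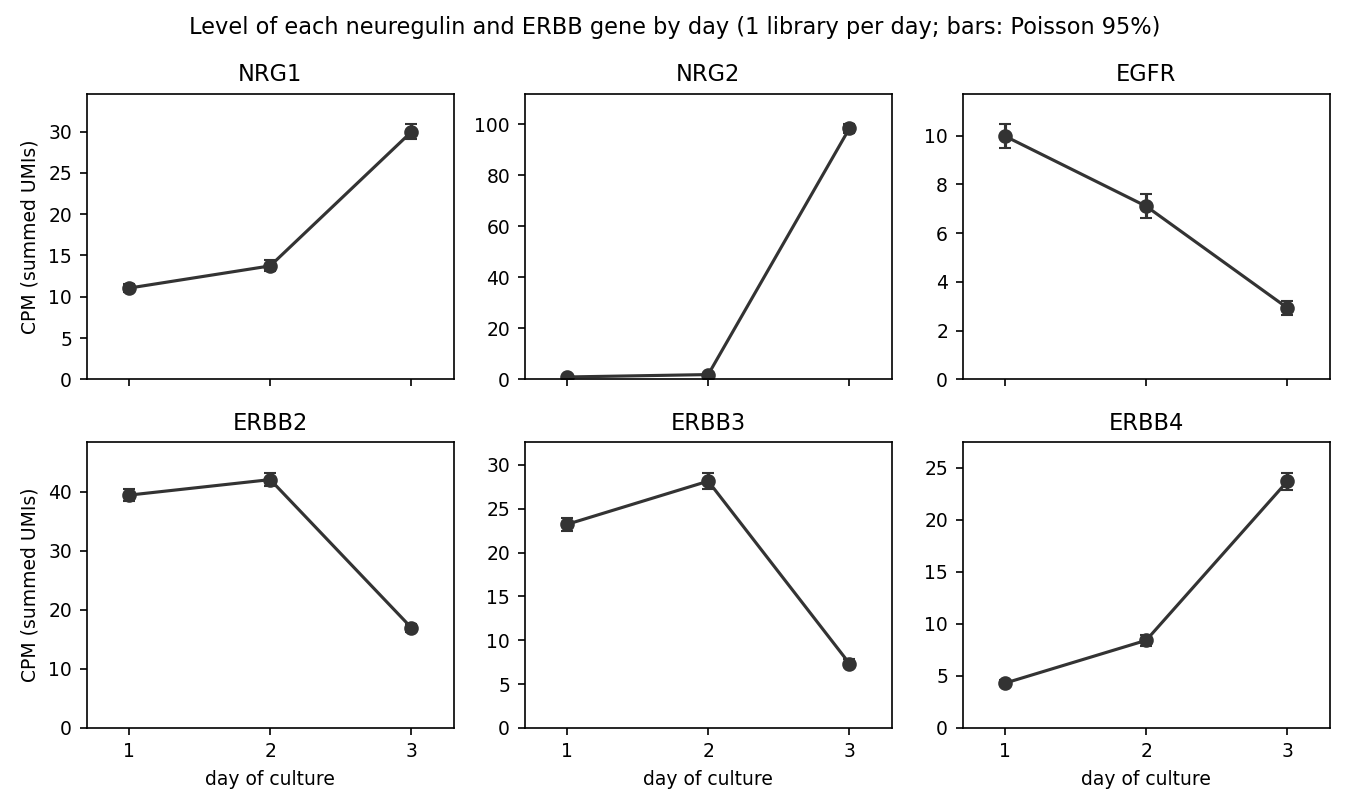
Level of each gene in CPM (y axis, linear from 0, its own range per panel) against day of culture (x axis), 1 library per day, with exact Poisson 95% intervals as bars. NRG2, NRG1 and ERBB4 are highest at day 3, at 98.3, 30.0 and 23.7 CPM, and EGFR, ERBB2 and ERBB3 are lowest at day 3, at 2.93, 16.9 and 7.34 CPM.

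A gene counted as higher or lower when its ratio passed 1.5-fold and the higher of the compared values reached 2 CPM. From day 2 to day 3, 3 of the 6 genes counted as higher and 3 as lower, where 14.1% of 14668 genes at that level were higher and 16.7% lower. From day 1 to day 2, ERBB4 alone of the 5 genes at that level counted as higher and 0 as lower, where 21.4% of genes were higher and 5.67% lower. Genes as a whole sat off centre in that interval: their median log2 ratio was 0.24 by total UMIs and -0.09 by TMM. For day 3 over day 2 the same medians were 0.01 and 0.03.

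Cells were then put in classes by marker UMIs after thinning, each cell in the first class it met: TFAP2A+ GATA3+ (genes of amnion and surface ectoderm), SOX17+ FOXA2+ (endoderm genes), MESP1+ (a gene of nascent mesoderm), TBXT+ without MESP1 (a gene of the primitive streak), SOX2+ without streak genes (a pluripotency gene), and all others. The classes are named by genes, not as cell types. The labels call the cells pluripotent at the start, and the pluripotency gene POU5F1 stood at 1172, 1034 and 397 CPM at days 1, 2 and 3, while SOX2 stood at 185, 80.4 and 6.15 CPM and MESP1 at 0.633, 77.6 and 317 CPM. Classes under 50 cells gave no level: 40 TFAP2A+ GATA3+ cells and 9 MESP1+ cells at day 1, 42 SOX2+ cells at day 3, and SOX17+ FOXA2+ cells, of which there were 0, 3 and 26. Because a class rests on detected UMIs, some cells without a UMI of a marker still express it. Neither that, nor free RNA in the droplets, was modelled.

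NRG2 at day 3 was high in MESP1+, TBXT+ and other cells and low in TFAP2A+ GATA3+ cells. It stood at 113 CPM in 4184 MESP1+ cells, 79.2 CPM in 1991 other cells and 55.7 CPM in 354 TBXT+ cells, and at 10.0 CPM in 78 TFAP2A+ GATA3+ cells, where 10 other draws of the thinning gave 2.92 to 19.0 CPM. At day 2 it was already 4.16 CPM in 1314 MESP1+ cells, against 0.837 CPM in 1122 TBXT+ cells. That was a ratio of 4.97, while the same ratio at day 3 was 2.03. The day 3 ratio depends on how deeply the markers are read, being 3.03 with cells thinned to 10000 UMIs and 6.04 with no thinning. Past 1.5-fold in this day 3 comparison, NRG1 and NRG2 were higher and EGFR, ERBB2, ERBB3 and ERBB4 lower in MESP1+ cells, where 3.12% of genes were higher and 12.9% lower. The NRG1 ratio of 1.63 was 1.46 with levels from thinned UMIs and 1.31 at the lowest of the draws, and the ERBB4 ratio of 0.469 turned to 1.05 without doublet removal.

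NRG2 was also higher at day 3 within 3 of the 4 classes measured on both days. Day 3 over day 2 was 27.2 in MESP1+ cells (22.2 to 33.5), 66.5 in TBXT+ cells (41.0 to 115) and 68.4 in other cells (53.4 to 89.0). In TFAP2A+ GATA3+ cells it was 2.58 with an interval of 0.959 to 8.05, which includes 1, and rests on 16 UMIs at day 3 and 6 at day 2. With the class make-up of day 3 but the class levels of day 2, the library would have had 3.09 CPM, against 98.0 CPM observed over the same classes. The change in make-up of these classes corresponds to a ratio of 1.71, and the change of levels within them to 31.7. Classes under 50 cells entered this reckoning, though no level is given for them. The second factor can also hold changes of make-up inside a class. MESP1+ cells with and without LHX1 numbered 334 and 980 at day 2, and 3103 and 1081 at day 3. NRG2 was higher in those with LHX1, with ratios of 4.20 at day 2 and 8.92 at day 3. The size of that part was not tested.

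NRG1 differed less between classes than NRG2 at day 3. At day 3 it stood at 32.1 CPM in MESP1+ cells, 30.0 CPM in TFAP2A+ GATA3+ cells, 27.4 CPM in other cells and 19.6 CPM in TBXT+ cells. At day 2 it was 15.6 CPM in MESP1+ cells and 7.28 CPM in TBXT+ cells, a ratio of 2.14, against 4.97 for NRG2. NRG1 was 44.6 CPM in 84 TFAP2A+ GATA3+ cells, where the other draws ranged over 21.3 to 56.4 CPM. The NRG2 draws in that class gave 0 to 2.45 CPM, so the spread over all classes of day 2 is not ranked between these genes. Within MESP1+ cells NRG1 at day 3 was 2.06 times day 2 (1.85 to 2.31).

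ERBB3 was lowest in MESP1+ cells on both days. At day 3 it stood at 3.74 CPM in MESP1+ cells, against 18.0 CPM in TBXT+ cells, 12.2 CPM in other cells and 23.8 CPM in TFAP2A+ GATA3+ cells. At day 2 it stood at 18.1 CPM in MESP1+ cells, against 28.0 CPM in TBXT+ cells and 29.7 CPM in SOX2+ cells. MESP1+ cells were 4.82-fold lower than TBXT+ cells at day 3, a ratio of 0.207, which became 0.121 with no thinning. At day 2 they were 1.54-fold lower, a ratio of 0.648, while 10 other draws gave lower ratios of 0.511 to 0.594. Within MESP1+ cells ERBB3 was 4.85-fold lower at day 3 than at day 2 (4.19 to 5.62), while within TBXT+ cells it was 1.55-fold lower (1.29 to 1.89).

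ERBB2, the partner of ERBB3, was also lower in MESP1+ than in TBXT+ and other cells, but its order over the classes differed. ERBB2 in MESP1+ and TFAP2A+ GATA3+ cells did not differ beyond counting error. Its ratio of the second to the first was 1.36 (0.912 to 1.95) at day 3 and 1.02 (0.729 to 1.40) at day 2. At day 3 it stood at 13.8 CPM in MESP1+ cells, 18.8 CPM in TFAP2A+ GATA3+ cells, where ERBB3 was highest, 21.0 CPM in other cells and 26.6 CPM in TBXT+ cells. At day 2 it stood at 26.6 CPM in MESP1+ cells, 27.2 CPM in TFAP2A+ GATA3+ cells (draws 23.0 to 31.6), 36.3 CPM in TBXT+ cells, 47.2 CPM in other cells and 52.7 CPM in 987 SOX2+ cells. EGFR stood at 2.23 CPM in MESP1+ cells of day 3 and 5.62 CPM in those of day 2, 2.52-fold lower at day 3 (2.00 to 3.15).

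ERBB4 at day 3 was higher in the cells outside every marker class than in MESP1+ cells. It stood at 42.9 CPM in these other cells and 14.7 CPM in MESP1+ cells, against 9.21 and 6.09 CPM in the same classes at day 2. In TBXT+ cells of day 3 it stood at 31.3 CPM, but the other draws gave 13.4 to 29.7 CPM, and in TFAP2A+ GATA3+ cells the draws gave 9.62 to 47.9 CPM, so neither class is placed in an order for this gene. In all, within MESP1+ cells from day 2 to day 3, the same 3 genes were higher (NRG1, NRG2, ERBB4) and the same 3 lower (EGFR, ERBB2, ERBB3) as in whole libraries, where 11.2% and 14.4% of genes were.

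**Figure D2:**
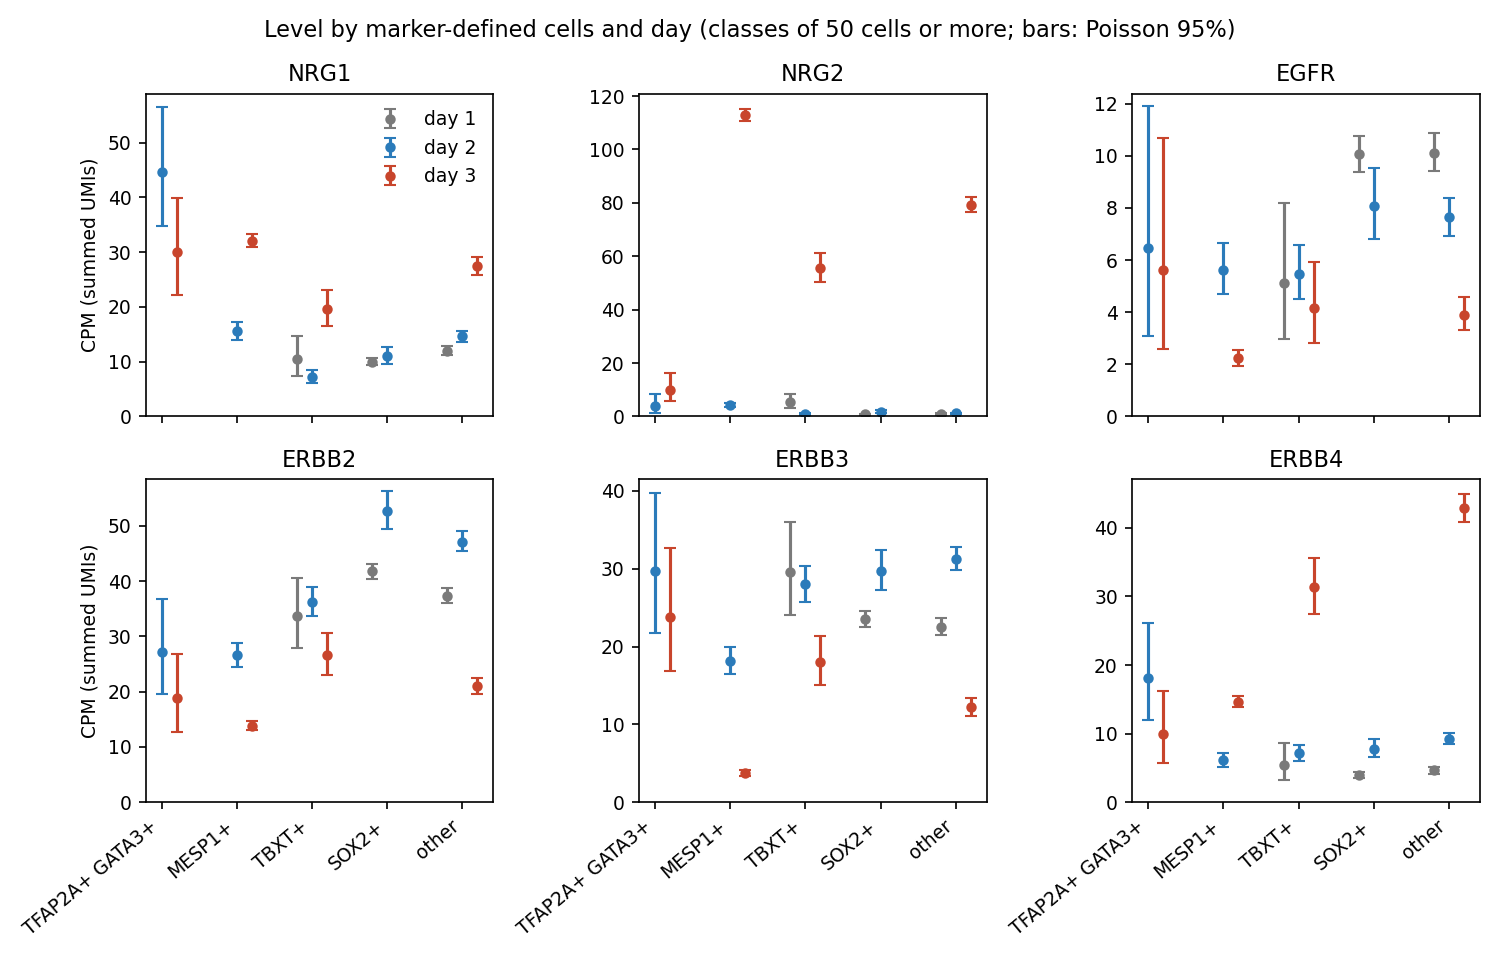
Level in CPM (y axis, linear from 0) of each gene in each marker-defined class (x axis) of at least 50 cells, with days in grey, blue and red and exact Poisson 95% intervals. At day 3 MESP1+ cells had 113 CPM of NRG2 and 3.74 CPM of ERBB3, and other cells had 42.9 CPM of ERBB4.

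MESP1+ cells were next divided by a second marker. LHX1, a transcription factor of the streak and of intermediate mesoderm, gave the widest gap in NRG2 at day 3. There NRG2 was 146 CPM in 3103 MESP1+ cells with LHX1 and 16.4 CPM in 1081 without, a ratio of 8.92 (8.04 to 9.93), and 40.8% against 6.01% of those thinned cells held an NRG2 UMI, at median depths of 19645 and 19665 UMIs. The ratio was 15.6 with markers read at 10000 UMIs and 24.0 with no thinning. At day 2 the same split gave 9.92 CPM in 334 cells with LHX1 and 2.36 CPM in 980 without, a ratio of 4.20 (2.76 to 6.43), while HAND1 gave 11.4 against 2.44 CPM, a ratio of 4.67 (3.07 to 7.11). ERBB3 went the other way on both days, at 2.39 CPM with LHX1 and 7.61 CPM without at day 3, and 11.5 CPM with and 20.2 CPM without at day 2. For NRG1 the ratio was 0.817 at day 3 and 0.766 at day 2, the draws giving 0.729 to 1.15 on the second of these. On each day 1 of the 6 genes, NRG2, passed 1.5-fold upward with LHX1 and 1, ERBB3, downward. Over all genes 5.85% were higher and 11.0% lower at day 3, and 6.04% and 6.19% at day 2. Other members lay close to these limits at day 3. ERBB4 had a ratio of 1.49 (draws 1.16 to 1.67), ERBB2 0.675 (draws 0.636 to 0.755) and EGFR 0.715 (draws 0.598 to 0.901). At day 2 the ERBB4 ratio of 1.30 had draws of 1.03 to 2.03. The count of members past 1.5-fold thus varies between draws.

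HAND1, a transcription factor of lateral and extraembryonic mesoderm, divided NRG1 more than LHX1 did. NRG1 was 37.1 CPM in 3097 MESP1+ cells with HAND1 and 17.5 CPM in 1087 without at day 3, a ratio of 2.13 (1.91 to 2.37). At day 2 it was 38.0 CPM in 270 cells with HAND1 and 10.2 CPM in 1044 without. That was a ratio of 3.71 (3.00 to 4.58), which was 2.28 without doublet removal and 2.37 with no thinning. Over 10 other draws the ratio was 2.58 to 3.34 and the level with HAND1 27.8 to 37.1 CPM, all below these values. NRG2 was higher with HAND1 too, at 134 against 51.1 CPM at day 3, a ratio of 2.63 that became 4.32 at 10000 UMIs and 9.11 with no thinning. ERBB4 had a day 3 ratio of 1.61 (1.40 to 1.87) and a day 2 ratio of 0.814 (0.497 to 1.28), whose interval includes 1. With HAND1 past 1.5-fold, NRG1, NRG2 and ERBB4 were higher and EGFR and ERBB3 lower at day 3, where 4.4% and 9.83% of genes were. At day 2 NRG1 and NRG2 were higher and ERBB3 lower, where 6.16% and 7.72% of genes were. Not all of these calls held over the 10 other draws: at day 3 NRG1 ranged over 1.45 to 2.00, ERBB4 over 1.30 to 1.71 and EGFR, at 0.653, over 0.555 to 0.773, and at day 2 ERBB3, at 0.629, ranged over 0.432 to 0.807.

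The other second markers went with less NRG2. At day 3 NRG2 was 67.5 CPM in 922 MESP1+ cells with TBX6 or MSGN1, genes of paraxial mesoderm, and 126 CPM in 3262 without. It was 41.3 CPM in 409 MESP1+ cells with CDH1, the epithelial cadherin, and 121 CPM in 3775 without, while ERBB3 was 6.77 CPM with CDH1 and 3.40 CPM without. At day 2 NRG2 did not differ beyond counting error with TBX6 or MSGN1 (ratio 1.10, 0.688 to 1.73) and was 1.72 CPM with CDH1 and 5.08 CPM without.

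All cells of day 3 were also divided 8 ways by a UMI of MESP1, HAND1 and LHX1, a split added after the class levels were seen. NRG2 followed LHX1 first and HAND1 second, with or without a MESP1 UMI in the thinned cell. MESP1 was found in 63.1% of day 3 cells after thinning and 81.9% at full depth. For HAND1 the shares were 69.6% and 85.6%, and for LHX1 63.9% and 76.8%. Some cells counted as without a gene thus held it at full depth, and the split is given at this depth only. Whether NRG2 differs with MESP1 itself was not tested. With both HAND1 and LHX1 it stood at 166 CPM in 2415 MESP1+ cells and 161 CPM in 867 cells without MESP1. With LHX1 alone of those 2 genes it stood at 76.1 and 64.5 CPM in cells with and without MESP1, and with HAND1 alone at 21.6 and 21.0 CPM, where the draws for the last gave 11.9 to 18.3 CPM. With neither it stood at 6.78 CPM in 404 MESP1+ cells and 4.30 CPM in 639 cells without any of the 3 genes. An NRG2 UMI was found in 45.0% of thinned cells with all 3 genes and in 2.35% of those with none, at median depths of 19718 and 18544 UMIs.

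ERBB3 was the reverse of NRG2 at the ends of this split, but not between them. It stood at 1.95 CPM in cells with all 3 genes and 32.2 CPM in cells with none, and an ERBB3 UMI was found in 0.745% and 13.3% of thinned cells. Cells with LHX1 alone, where NRG2 was 64.5 CPM, held 16.1 CPM of ERBB3, while cells with HAND1 but not LHX1, where NRG2 was 21.6 CPM with MESP1 and 21.0 CPM without, held 5.53 CPM with MESP1 and 10.6 CPM without. The level of cells with none, 32.2 CPM, had an interval of 29.2 to 35.5 CPM, which includes the 31.0 CPM of the 5083 cells with none at day 2. ERBB2 stood at 11.6 CPM in day 3 cells with all 3 genes and 39.0 CPM in cells with none, and EGFR at 1.81 and 6.73 CPM.

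ERBB4 followed neither pattern. At day 3 it was highest in 666 cells with HAND1 alone, at 59.4 CPM (draws 52.7 to 64.7), then at 40.8 CPM in cells with HAND1 and LHX1 but not MESP1 (draws 33.4 to 42.8). The MESP1+ cells with HAND1 stood at 17.2 CPM with LHX1 and 12.7 CPM without. Cells with HAND1 thus held more ERBB4 when no MESP1 UMI was found, while the receptor's level in cells with none of the genes was 21.0 CPM (draws 23.2 to 30.4).

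NRG1 was highest at day 3 in MESP1+ cells with HAND1 but not LHX1, at 48.7 CPM (draws 37.9 to 49.8). Its lowest levels were 15.5 CPM with none of the 3 (draws 13.3 to 18.0) and 15.7 CPM with MESP1 alone (draws 16.3 to 20.5). At day 2 the contrast was wider: 164 cells with HAND1 alone stood at 75.2 CPM (draws 65.0 to 84.1) and 163 MESP1+ cells with HAND1 but not LHX1 at 54.3 CPM (draws 30.4 to 46.5), against 10.7 CPM in cells with none. The cells with HAND1 alone at day 2 also held 25.2 CPM of ERBB4 (draws 13.4 to 21.8), and 0.671 CPM of NRG2, which rests on 2 UMIs.

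**Figure D3:**
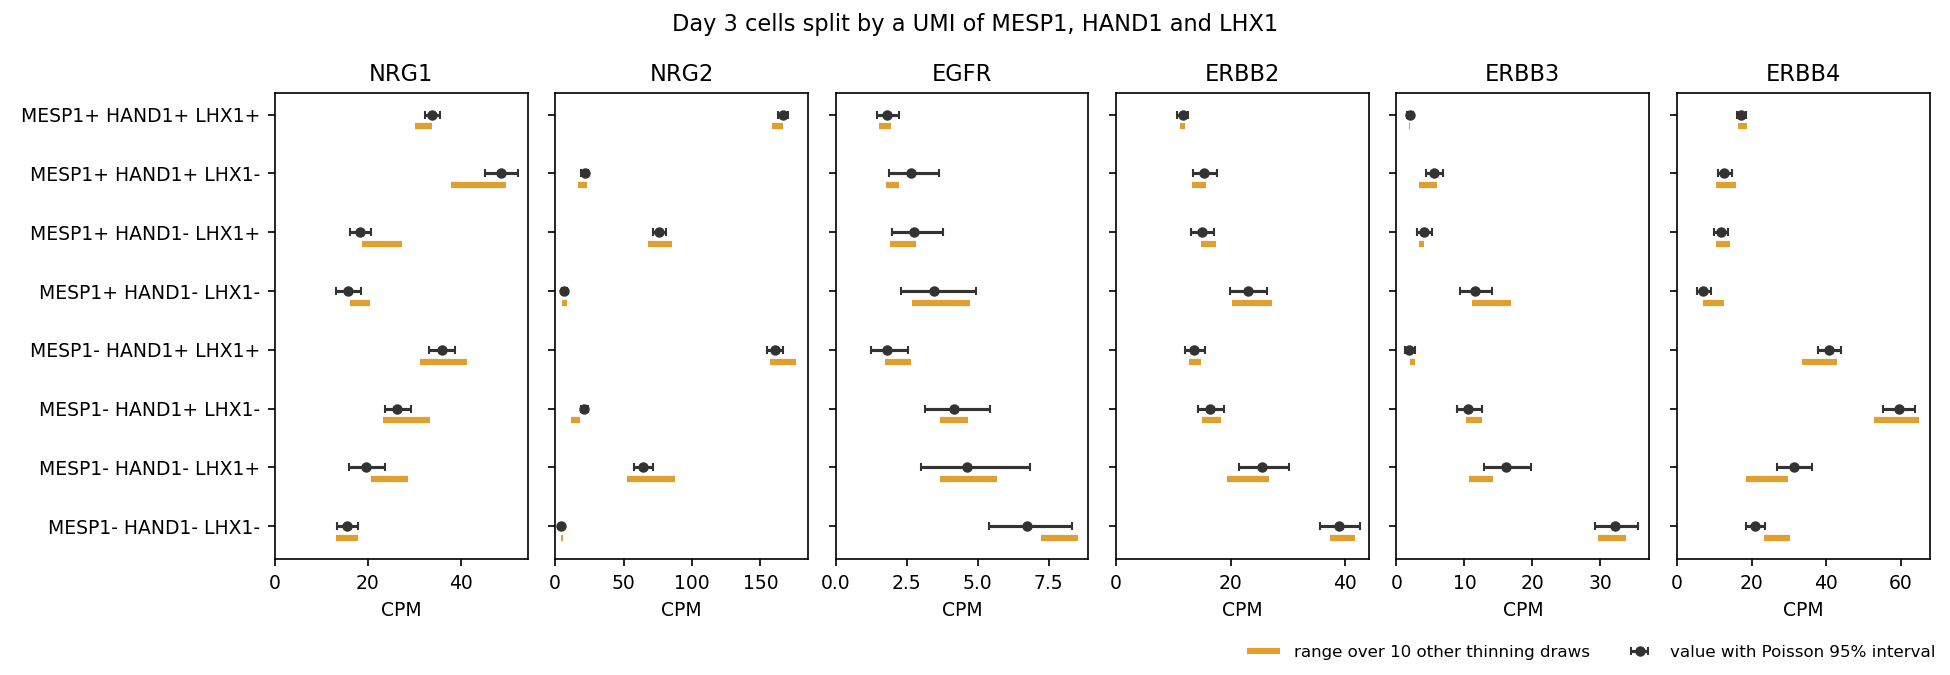
Day 3 cells split 8 ways by a UMI of MESP1, HAND1 and LHX1 (rows, all-positive at the top, none at the bottom), with the level of each gene in CPM (x axis, linear from 0). Points carry exact Poisson 95% intervals and the orange bars span 10 other thinning draws. NRG2 runs from 166 CPM at the top to 4.30 CPM at the bottom, and ERBB3 from 1.95 to 32.2 CPM.

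The relation of NRG2 and ERBB3 to LHX1 was graded. In day 3 cells with 0, 1, 2, 3 to 4, 5 to 9 and 10 or more LHX1 UMIs after thinning, NRG2 stood at 14.4, 59.7, 100.1, 128, 180 and 235 CPM. In the same order ERBB3 stood at 14.9, 7.61, 3.60, 2.50, 1.69 and 1.37 CPM. ERBB2 stood at 23.2 CPM in the first of these groups and 11.2 CPM in the last. NRG1 stood at 28.4 CPM in cells with no LHX1 UMI, and at 19.9, 21.3, 29.4, 34.4 and 47.8 CPM in those with 1 to 10 or more, so it was lowest at 1 and highest at the top. The groups held 2407, 782, 567, 910, 1404 and 605 cells, and this ordering was also added after the class levels were seen.

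Over HAND1 UMIs the relation was not graded in that way. In cells with 0, 1, 2, 3 to 4, 5 to 9 and 10 or more HAND1 UMIs, NRG2 stood at 38.0, 98.8, 133, 142, 123 and 76.5 CPM, the last in 93 cells. NRG1 stood at 17.1, 26.8, 37.8, 40.3, 37.4 and 27.1 CPM. Both were highest at intermediate HAND1.

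**Figure D4:**
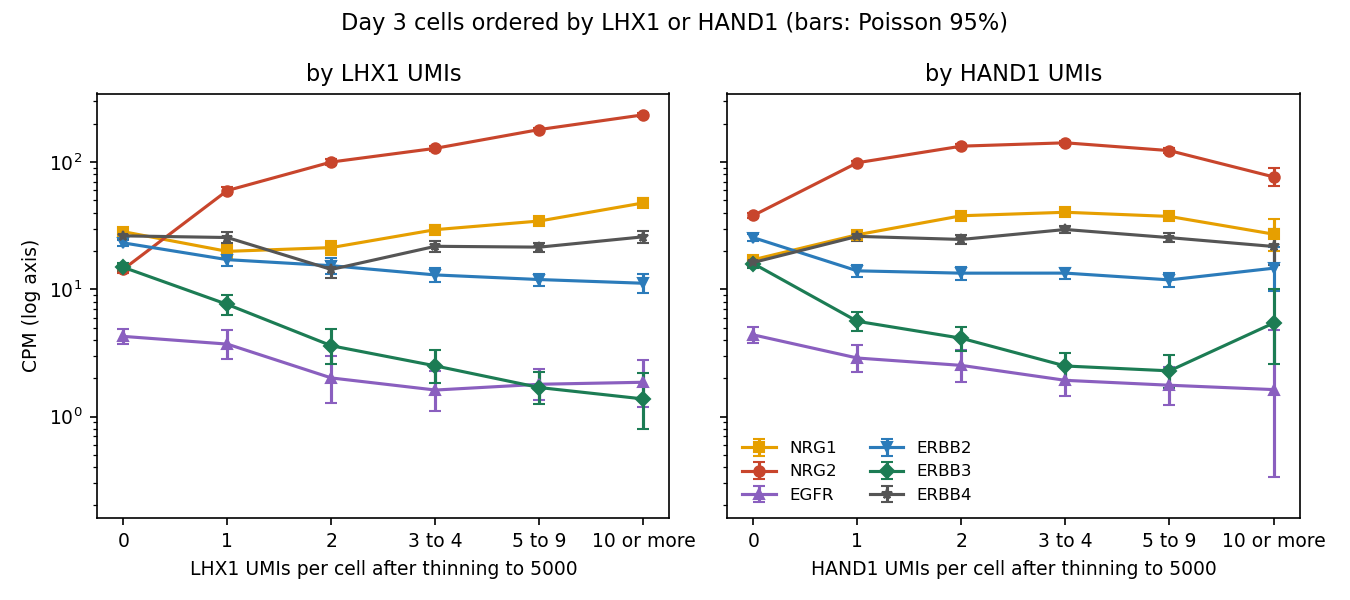
Level of the 6 genes in CPM (y axis, log scale) in day 3 cells grouped by their number of LHX1 UMIs (left) or HAND1 UMIs (right) after thinning, with exact Poisson 95% intervals. NRG2 climbs over LHX1 UMIs from 14.4 to 235 CPM while ERBB3 runs from 14.9 to 1.37 CPM.

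NRG2 and ERBB3 were found together in fewer cells than the product of their shares, and NRG2 and ERBB4 in slightly more. At day 3, 18 of 6675 thinned cells held a UMI of both NRG2 and ERBB3, a share of 0.270% (exact binomial 95% interval 0.160% to 0.426%), where the product of the single shares gives 58.7 cells, or 0.879%. For NRG2 with ERBB4 there were 167 cells, a share of 2.50% (2.14% to 2.91%), against 141 cells or 2.11% from the product, and for NRG1 with ERBB4 79 cells, against 52.7. For NRG1 with ERBB3 there were 14 cells, against 21.9, a difference within counting error. ERBB2 and ERBB3, the usual dimer, shared 28 cells at day 3, against 16.2. At day 2 they shared 171 cells of 6742, against 152, and at day 1 63 cells of 3499, against 64.9, both within counting error. The product treats all cells as alike, which the class levels above show they were not.

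The remaining genes of the pathway were read from a list of 37, of which 32 reached 2 CPM. From day 1 to day 2, 15 counted as higher and 1 as lower, with a median ratio of 1.44, where 21.4% and 5.67% of all genes did and the median of all genes was 1.18. By TMM the list had 8 higher. The share of all genes was not counted by TMM, so that 8 has no like share beside it. From day 2 to day 3, 4 counted as higher and 3 as lower, where 14.1% and 16.7% of all genes did, with a median ratio of 1.16 against 1.01 over all genes.

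Of the other ligands, 4 of 9 were tested. NRG3, a neuregulin that binds ERBB4, stood at 61.3, 92.3 and 81.0 CPM at days 1, 2 and 3, EGF at 11.3, 24.6 and 33.7 CPM, TGFA at 2.51, 5.35 and 4.07 CPM and HBEGF at 2.59, 2.22 and 2.40 CPM. Day 2 over day 1 was 2.19 for EGF, 2.13 for TGFA and 1.51 for NRG3, the last 1.20 by TMM. The ligands AREG, EREG, BTC, EPGN and NRG4 stayed under 2 CPM at every day, and AREG had 0 UMIs at day 3.

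Of the 7 release and cleavage genes, 6 counted as higher at day 2 than at day 1, where 21.4% of all genes did. ADAM19, a protease that cleaves neuregulins, stood at 17.9, 49.8 and 111 CPM at days 1, 2 and 3, and BACE1, which also cleaves NRG1, at 5.60, 10.9 and 41.4 CPM. Day 3 over day 2 was 2.23 for ADAM19 and 3.81 for BACE1, while BACE2 was 1.53-fold lower. ADAM10, ADAM17 and RHBDF1, a regulator of ADAM17, had day 2 ratios of 1.57, 1.53 and 2.45 against day 1, those of ADAM10 and ADAM17 being 1.25 and 1.22 by TMM.

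Among 11 adaptors and effectors, the PI3-kinase subunits PIK3R1, PIK3R3, PIK3CA and PIK3CB counted as higher at day 2, where 21.4% of all genes did. Their ratios were 1.81, 1.64, 1.78 and 2.11. By TMM these were 1.45, 1.31, 1.42 and 1.69, so PIK3CB alone of them still passed 1.5-fold. At day 3 PIK3CB was 1.69-fold lower than at day 2, and 0 of the 11 counted as higher, where 14.1% of all genes did. Among 10 genes of restraint and turnover, LRIG3 stood at 1.86, 11.0 and 26.7 CPM at days 1, 2 and 3. LRIG1, which promotes the degradation of ERBB receptors, was 2.07-fold lower at day 3 than at day 2, and CBLB, a ubiquitin ligase, was 1.66 times higher. ERRFI1, an inhibitor of the EGFR kinase, was 1.71-fold lower at day 2 than at day 1, and TOB1 had a ratio of 1.86, which was 1.49 by TMM.

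The genes whose levels ran most like NRG2 were named by their Pearson correlation of log2(CPM + 1) over the 12 class and day profiles with at least 50 cells. The 8 closest were PGF (r = 0.974), H2AFY, RPL6, NUP50-DT, NKX2-5, TAOK2, DDX1 and SH2D4B (r = 0.966). PGF encodes placental growth factor and NKX2-5 a cardiac transcription factor. With a pseudocount of 0.1, 5 of the 8 were again among the closest, namely PGF, H2AFY, RPL6, NUP50-DT and DDX1. NKX2-5, TAOK2 and SH2D4B were no longer among them. The profiles share 3 libraries and their depth, and are not independent. Among the 6 genes themselves, NRG2 had r = 0.79 with ERBB4, 0.64 with NRG1, -0.79 with ERBB3, -0.82 with ERBB2 and -0.88 with EGFR. EGFR and ERBB2 had r = 0.81. The ERBB4 value takes in the day 3 levels of TBXT+ and TFAP2A+ GATA3+ cells, which varied between draws.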

How the data were processed

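Human UCLA1 cells were profiled in droplets of the 10x Genomics platform, 1 library per day. The authors deposited whole-number UMI counts per gene and cell, made with Cell Ranger 5.0.1 on hg38 per the submitters' processing notes. The deposited counts are raw. Cells had to show 1000 genes or more and no more than 20% of UMIs from mitochondria, and the highest doublet scores (Scrublet in scanpy 1.11.5) were removed at a rate of 0.8% for every 1000 barcodes (144, 668 and 457 cells), because its automatic threshold marked 3, 1 and 1. CPM is the summed UMIs of a gene over the summed UMIs of all genes, with exact Poisson intervals; ratios have exact conditional binomial intervals and shares exact binomial ones. The ratio intervals and the thinning were tested on simulated data. Its counts were drawn as Poisson, so that check does not cover UMIs that cluster in cells. Cells were thinned at random to 5000 UMIs for shares and classes, leaving out 34, 482 and 129 shallower cells. Levels within classes use all UMIs. TMM factors came from edgeR 4.0.16. Gene positions are from GENCODE release 44. With 1 library per day no test was made and no p-value is given.

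The 6 genes, the pathway list, the markers and the thresholds were chosen with earlier results of these data known. The text names all 6 genes, the pathway genes past 1.5-fold between consecutive days at 2 CPM or more, all 9 other ligands, the 8 genes closest to NRG2 and the class markers. Alternatives changed the scaling, filters, thinning and thresholds. A planned comparison of protein sequences was not made.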

Additional observations from a re-analysis of the deposited data

Results flagged for a closer look

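NRG2 between day 1 and day 2 moved in opposite directions in a pair of classes. Day 2 over day 1 was 2.24 in SOX2+ cells, at 1.71 CPM at day 2 against 0.761 CPM at day 1 (1.15 to 2.24 over 10 other thinning draws), and 0.154 in TBXT+ cells, at 0.837 CPM at day 2 against 5.43 CPM at day 1. The difference between these ratios was not tested. The TBXT+ class of day 1 held 63 cells, of which 2 had an NRG2 UMI, and 17 of the 18 UMIs lay in 1 cell. Without that cell its level was 0.306 CPM, and 10 other thinning draws gave 0 to 6.56 CPM.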

How the results depend on the processing

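No paired analysis was possible because there was 1 library per day and no replicate number. From day 2 to day 3, the 3 higher and 3 lower genes kept these counts under every alternative scaling, filter and thinning run. From day 1 to day 2 the 1 higher gene became 2 when ribosomal and mitochondrial genes were left out of the total and when cells were thinned, and the 0 lower genes became 1 by TMM, by median-of-ratios and without the third of cells with the fewest UMIs. The pathway list's 15 higher genes became 8 by TMM, 8 by median-of-ratios and 7 at 2-fold, and its 1 lower gene 0 at 2-fold. From day 2 to day 3 its 3 lower genes became 5 with no minimum level and 1 at 2-fold. The shares over all genes were not counted under these alternatives, so these counts have no like share beside them. The NRG2 ratio of day 3 MESP1+ cells with over without LHX1, 8.92, became 15.6 at 10000 UMIs, 24.0 with no thinning, 7.29 without doublet removal and at most 11.0 over 10 other draws, which were added after seeing the data. That of MESP1+ over TBXT+ cells, 2.03, became 3.03, 6.04 and 2.26 under the same 3 settings, and 1.70 to 2.27 over the draws. Pseudocount 0.1 left 5 of the 8 genes closest to NRG2. ERBB4 in day 3 MESP1+ over TBXT+ cells, 0.469, turned to 1.05 without doublet removal and to 1.09 at the highest draw. EGFR in day 3 MESP1+ cells with over without CDH1, 1.57, turned to 0.690 at the lowest draw. The causes were not tested. Levels in classes of few cells rest on few UMIs, such as 6 for NRG2 in TFAP2A+ GATA3+ cells of day 2.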

Other observations

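Day 3 cells were also compared by whether a UMI of a receptor or ligand was found. This comparison was added after the class levels were seen. The genes described were picked from the 8 with the widest ratios in each direction among those at 20 CPM or more. Some with wider ratios are passed over, such as FMOD (4.19) and AMOT (0.0657) for NRG2. The 517 thinned cells with an ERBB4 UMI held more HAND2, a transcription factor of heart and limb mesoderm, at 47.6 CPM against 6.89 CPM in the 6158 cells without. They also held more RSPO2, a WNT agonist, at 132 against 21.0 CPM, PRRX1 at 67.7 against 11.4 CPM, the growth factor HGF at 61.5 against 11.7 CPM, and cardiac actin ACTC1 at 514 against 143 CPM. The 1821 cells with an NRG2 UMI held less RSPO2 and PRRX1, at 3.19 and 1.98 CPM, against 39.6 and 21.0 CPM in cells without, and more of the potassium channel KCNQ5, at 152 against 37.2 CPM.

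The 215 cells with an ERBB3 UMI held more NANOS3, a germ cell gene, at 33.5 against 3.84 CPM. The next by ratio were TRPC5, SYNPO2 and EPAS1. The same cells held less ZEB1, a repressor of epithelial genes, at 9.30 against 70.6 CPM. Over the 12 class profiles, the gene closest to ERBB3 was ESRP1, an epithelial splicing regulator (r = 0.974), that closest to ERBB4 was NRCAM (r = 0.981) and that closest to ERBB2 was KCND2 (r = 0.990). These genes were chosen after their values were seen.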
